A study of Mus musculus with 24 samples.

Results

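The comparison described here set the cells that an *Islet1*-GFP reporter labelled in oculomotor cultures against the unlabelled cells of the same cultures, gene by gene. It used 12 of the 24 samples of the series, all those from oculomotor cultures: 6 GFP-positive (numbered 1 to 6) and 6 GFP-negative with the same numbers, read as 6 pairs. Mouse embryonic stem cells of the Islet1-GFP/NesEPhox2A line, which carries GFP under control of *Islet1* and overexpresses *Phox2a* under the *nestin* enhancer, were grown as embryoid bodies and patterned for 5 days with 250 nM of SAG, an agonist of the hedgehog receptor protein Smoothened, and 100 ng/ml of the growth factor Fgf8, then sorted by GFP. Both fractions thus shared the line, the transgene and the morphogens, and the *nestin* enhancer directs the transgene to neural progenitors. The other 12 samples are the same 2 fractions of spinal cultures, which were made from a different line (Hb9-GFP) with 500 nM SAG and 100 nM retinoic acid, and they enter only the last comparison. RNA was read with SMART-seq2 on poly(A) RNA, and the deposited values are RPKM (reads of a gene scaled by its length and by the mapped reads of the sample), so that levels can be compared between genes. No source used here says that the samples came from separate cultures, and the p-values below measure the spread between these samples, which may be technical.

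Sequencing depth, estimated from the steps between low RPKM values, was 1349152 to 4642207 reads per sample in pairs 1 to 4 and 4822576 to 6907319 reads in pairs 5 and 6, which were more deeply sequenced. The paper states that different Illumina platforms and read lengths were used, and the sample titles do not say which samples each covers. Whether depth, platform or another factor sets pairs 5 and 6 apart was not tested. All 6 GFP-negative samples held more genes above 0.1 RPKM than their partners (14833 ± 437 against 13941 ± 719 genes, mean ± SD, n = 6, exact two-sided sign-flip test over pairs p = 0.0312, the smallest value that 6 pairs allow). Above 1 RPKM the fractions were close (10548 ± 699 against 10507 ± 725 genes, exact p = 0.781). Mitochondrial genes took 3.80% to 16.7% of summed RPKM in the GFP-positive and 3.43% to 13.6% in the GFP-negative samples and were higher in the GFP-positive sample of 5 of 6 pairs (exact p = 0.0938). Summed RPKM itself was lower in the GFP-positive sample of all 6 pairs (means of 431720 against 485390, exact sign-flip p = 0.0312). Among the 11487 genes with a mean of at least 1 RPKM, samples of the same number deviated together from their fraction means (Pearson correlation across genes, which are not independent replicates, 0.383 to 0.731), and the fit therefore kept the pair as a block.

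Oculomotor neurons are the motor neurons of the midbrain that move most of the eye muscles. *Islet1* is a LIM homeodomain factor that motor neurons switch on as they leave the cell cycle, and *Phox2a* is a homeodomain factor required for oculomotor neurons. An embryoid body holds cells at many stages, among them newborn neurons, neural progenitors, cells still in the pluripotent state and cells that took other routes. *Islet1* is not specific to motor neurons: sensory and some other neurons also express it. In bulk RNA of a fraction, fewer cells of a type and less RNA per cell cannot be told apart.

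The reporter gene separated the fractions in every pair. *Isl1* (chromosome 13, 116298281 to 116309689, GRCm38) stood at 209, 271, 141, 219, 286 and 369 RPKM in GFP-positive samples 1 to 6, and 0.696, 1.07, 1.15, 1.87, 0.995 and 1.42 RPKM in the GFP-negative samples. It was the gene used for sorting, and its step of 6.79 on the log2(RPKM + 1) scale is the check of the sort and not a result. All log2 changes below are GFP-positive minus GFP-negative on this scale, given ± SE from limma with the pair as a block. The added 1 RPKM makes them understate the change of genes with low values.

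Across the table, 4975 of 18932 genes tested (26.3%) differed between the fractions at an adjusted p below 0.05, of which 2505 (13.2%) were higher and 2470 (13.0%) lower in GFP-positive cells. The counts of the lists below stand against these shares. The median change over all genes tested was -0.01. The change exceeded 1 in size for 1335 of the higher and 1242 of the lower genes, and exceeded 3 for 129 and 58. For 896 genes (4.73%) all 6 GFP-positive samples lay above all 6 GFP-negative ones, and for 549 (2.90%) all lay below. Without the pairing the count fell to 2325, of which 2315 were among the 4975. Pairs 1 to 4 alone gave 2798 genes and pairs 5 and 6 alone 4870. The fit of pairs 5 and 6 leaves 1 residual degree of freedom per gene, so that its p-values lean on the spread that limma pools across genes. The higher count is therefore no stronger evidence, and counts from pairs 5 and 6 alone below carry the same limit. The main fit used RPKM without further scaling, although summed RPKM differed between the fractions, and the split depends on this choice. Scaling to equal sums that left out mitochondrial genes and the 10 highest genes moved the split to 3379 higher and 1913 lower. Median ratio scaling moved it to 2352 higher and 2845 lower.

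**Figure D1:**
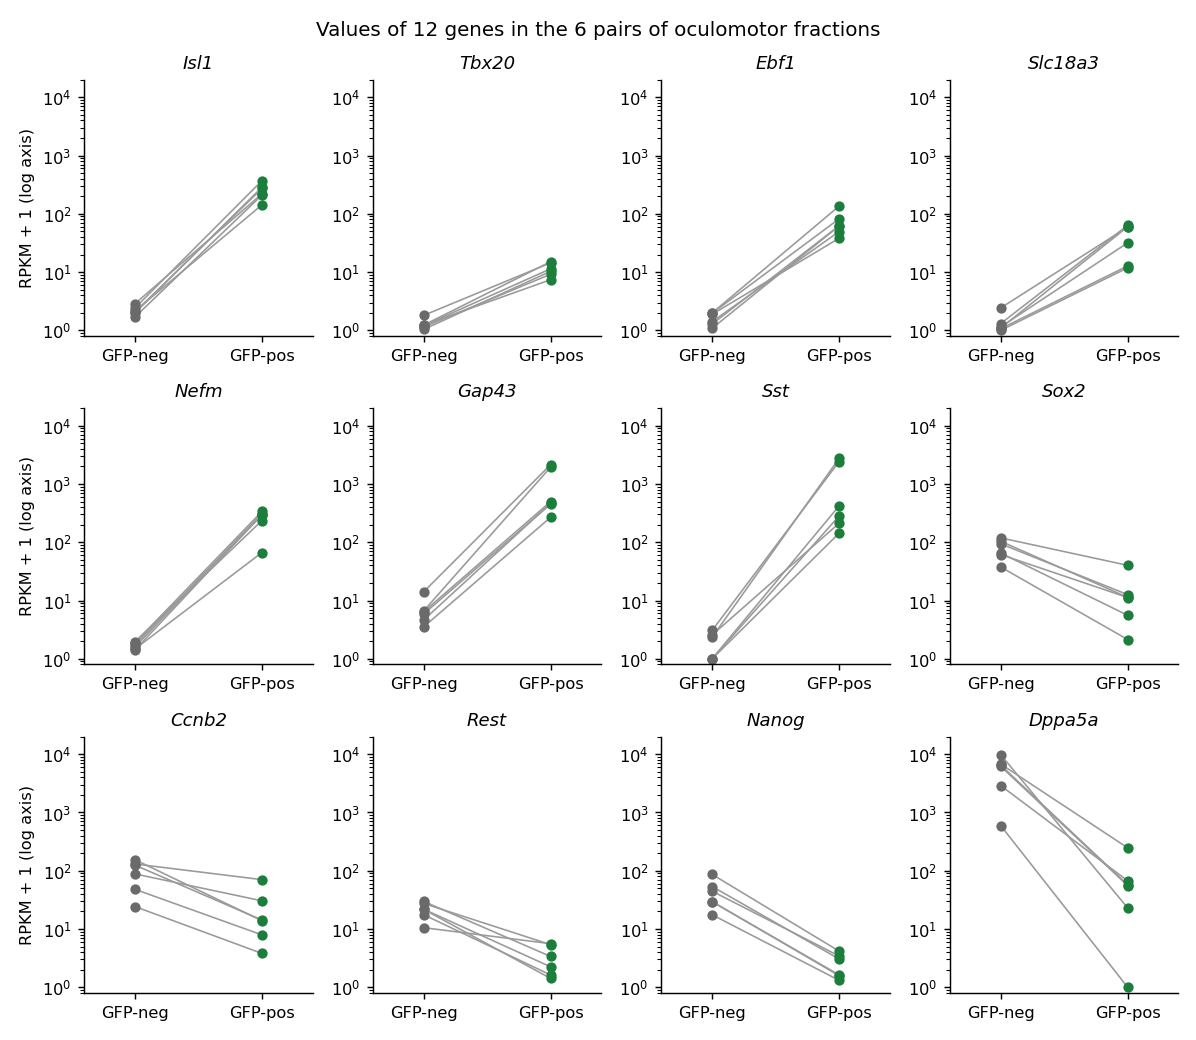
RPKM + 1 on a log axis for 12 genes, with one point per sample, GFP-negative samples in grey and GFP-positive in green, and a line joining the samples of the same number. The lines of *Isl1*, *Tbx20*, *Ebf1*, *Slc18a3*, *Nefm*, *Gap43* and *Sst* rise in all 6 pairs and those of *Sox2*, *Ccnb2*, *Rest*, *Nanog* and *Dppa5a* fall in all 6 pairs.

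The 12 genes with the largest rise, among those separated in all samples and with a mean of at least 5 RPKM, comprised a peptide, neuronal structure genes and regulators. *Sst* (chromosome 16, 23889573 to 23890958), which encodes the peptide hormone somatostatin, stood at 142, 211, 420.4, 282, 2427 and 2752 RPKM in GFP-positive samples 1 to 6, and 0, 1.57, 0, 0, 2.08 and 1.34 RPKM in the GFP-negative samples. GFP-positive samples 5 and 6 held far more *Sst* than the other 4, and the change was 8.37 ± 0.46, adjusted p = 9.0e-06. *Ppp1r17* (chromosome 6, 56017497 to 56032689), an inhibitor of protein phosphatase 2A known from Purkinje cells, ranged over 158 to 368 (median 254) RPKM in the GFP-positive and 0 to 1.77 (median 0.931) RPKM in the GFP-negative samples (7.07 ± 0.22, adjusted p = 1.04e-06).

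*Rgs4* (chromosome 1, 169741477 to 169747642), a regulator of G-protein signaling, ranged over 78.6 to 191 (median 126) RPKM in the GFP-positive and 0 to 0.718 (median 0.247) RPKM in the GFP-negative samples (6.60 ± 0.22, adjusted p = 1.26e-06). *C1ql1*, a secreted C1q-domain protein of synapses, ranged over 25.0 to 265 (median 64.4) against 0.141 to 3.08 (median 0.981) RPKM (5.19 ± 0.38, adjusted p = 3.71e-05). The rule that picked the 12 required groups without overlap, so that their separation is no further result. *Isl1*, *Nefm*, *Nefl*, *Gap43*, *Tubb3*, *Ebf1* and *Stmn4* were also among the 12 and are described with their groups below.

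Among the 12 largest falls, *Dppa5a* (chromosome 9, 78367052 to 78368177), an RNA-binding protein of pluripotent cells, stood at 246, 66.2, 56.2, 0, 22 and 54.5 RPKM in GFP-positive samples 1 to 6, and 6779, 2885, 6483, 593, 9806 and 6190.0 RPKM in the GFP-negative samples. No GFP-positive sample came near its partner, and sample 4 was the lowest of both fractions (-6.96 ± 0.54, adjusted p = 5.20e-05). *Spp1*, the secreted phosphoprotein osteopontin, ranged over 0 to 11.8 (median 1.66) against 14.4 to 302 (median 118) RPKM (-4.90 ± 0.49, adjusted p = 1.96e-04).

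*Hspb1*, a small heat shock protein, changed by -4.58 (medians 1.42 against 49.5 RPKM). *Mt2*, a metallothionein that binds zinc, changed by -4.41 (medians 7.71 against 124 RPKM). *Epcam*, the adhesion molecule of epithelial and pluripotent cells, changed by -4.30 (medians 0.773 against 26.4 RPKM). The remaining 7 were *Wfdc2*, *Spink1*, *Ifitm1*, *Rhox5*, *Fbxo15*, *Upp1* and *Dppa3*, with changes from -4.53 to -4.17. The falls were picked by the same rule as the rises, so that groups without overlap were required and are no further result.

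Of 12 motor neuron transcription factors tested, 9 were higher in GFP-positive cells (against 13.2% of all genes) and none was lower, with a median change of 1.72. This list holds *Isl1* itself, the gene of the sort.

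*Phox2a* stood at 30.5, 53.4, 25.4, 33.0, 6.08 and 5.83 RPKM in GFP-positive samples 1 to 6, and 6.43, 3.46, 3.09, 5.83, 3.16 and 4.35 RPKM in the GFP-negative samples. Its groups overlapped: GFP-positive samples 5 and 6 lay below the highest GFP-negative sample, although the GFP-positive sample was higher in each pair (1.97 ± 0.39, adjusted p = 0.00619). In pairs 5 and 6 alone the adjusted p was 0.152. The RPKM value does not separate the endogenous message from that of the transgene.

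*Tbx20*, a T-box factor of cranial motor neurons, ranged over 6.39 to 14 (median 9.83) against 0.0346 to 0.803 (median 0.215) RPKM (3.13 ± 0.19, adjusted p = 1.41e-05). *Lhx4*, a LIM factor of newborn motor neurons, ranged over 9.81 to 34.4 (median 16.6) against 0 to 0.258 (median 0.0481) RPKM (4.04 ± 0.23, adjusted p = 1.12e-05), and *Nkx6-1*, a ventral homeodomain factor kept by several cranial motor neurons, ranged over 64.9 to 537 (median 159) against 6.54 to 82.4 (median 12.3) RPKM (3.09 ± 0.23, adjusted p = 4.40e-05). For *Tbx20* and *Lhx4* the groups were far apart, whereas the highest GFP-negative value of *Nkx6-1* exceeded the lowest of the GFP-positive samples.

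Other factors of the list are best known from spinal motor neurons. *Mnx1*, which encodes HB9, was at 0.0696 to 6.91 (median 2.23) RPKM in the GFP-positive and 0 to 0.988 (median 0.227) RPKM in the GFP-negative samples. It passed the test (1.11 ± 0.31, adjusted p = 0.0264), and its call was lost without pair 2, 3 or 4 (adjusted p = 0.0604 to 0.0783), and without the pairing (adjusted p = 0.117). *Lhx3*, the LIM factor of medial spinal motor neurons, reached at most 0.154 RPKM in the GFP-positive and 0.243 RPKM in the GFP-negative samples (-0.03 ± 0.07, adjusted p = 0.829). *Isl2*, the paralog of *Isl1*, ranged over 0.891 to 6.13 (median 2.72) against 0 to 0.785 (median 0.222) RPKM (1.48 ± 0.29, adjusted p = 0.00575), without overlap. In pairs 1 to 4 alone its adjusted p was 0.0559.

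Transcription factors of postmitotic neurons were higher in GFP-positive cells for 20 of 24 genes (against 13.2% of all genes), with a median change of 2.66 and none lower. For 19 of the 24 genes tested all GFP-positive samples lay above all GFP-negative ones, against 4.73% of all genes. *Ebf1*, an early B-cell factor family member that neurons use as they differentiate, ranged over 37.1 to 135 (median 61.2) RPKM in the GFP-positive and 0.0850 to 0.988 (median 0.646) RPKM in the GFP-negative samples (5.40 ± 0.23, adjusted p = 2.50e-06). *St18*, a zinc finger factor of the Myt1 family, ranged over 28.8 to 51.4 (median 43.1) against 0 to 0.917 (median 0.189) RPKM (5.03 ± 0.18, adjusted p = 1.49e-06). Neither was above 1 RPKM in any GFP-negative sample.

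*Onecut2*, a cut homeodomain factor, ranged over 21.3 to 69.6 (median 37.2) against 0.434 to 2.71 (median 0.563) RPKM (4.39 ± 0.20, adjusted p = 3.32e-06), and *Nhlh2*, a basic helix-loop-helix factor of newborn neurons, over 13.2 to 39.5 (median 20.8) against 0 to 0.153 (median 0.0365) RPKM (4.40 ± 0.23, adjusted p = 7.21e-06). *Ebf3*, *Myt1*, *Nhlh1* and *Onecut1* changed by 4.03, 3.71, 4.12 and 2.90. *Eya1* and *Eya2*, phosphatases that act as transcriptional cofactors, changed by 2.55 and 3.82. *Klf7* and *Ebf2* changed by 3.09 and 3.00. Among the 4 factors that did not pass were *Pou3f1*, *Myt1l* and *Scrt1*.

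Genes of acetylcholine transmission were mostly higher in GFP-positive cells. The list also holds the peptide genes *Calca* and *Calcb*, which are not part of acetylcholine transmission. Of 12 tested, 8 were higher and 1, *Calca*, was lower, with a median change of 2.21. Of all genes 13.2% were higher and 13.0% lower, so that the count lower was not above the general share. *Slc18a3*, which loads acetylcholine into vesicles, stood at 58.2, 59.0, 30.8, 62.4, 10.8 and 11.8 RPKM in GFP-positive samples 1 to 6, and 1.43, 0.0972, 0.145, 0.307, 0 and 0.0668 RPKM in the GFP-negative samples. All 6 GFP-positive samples were above all GFP-negative ones, with the lowest in pairs 5 and 6 (4.65 ± 0.32, adjusted p = 2.95e-05).

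*Chat*, the enzyme that makes acetylcholine, was 1.29 to 13.1 (median 6.72) RPKM in the GFP-positive samples and listed at 0 in all 6 samples of the GFP-negative fraction (adjusted p = 0.00113). *Ache*, which breaks acetylcholine down, ranged over 2.00 to 11.3 (median 2.79) against 0 to 0.0745 (median 0) RPKM (2.12 ± 0.29, adjusted p = 8.68e-04). The neuronal nicotinic receptor subunits *Chrna3*, *Chrnb4*, *Chrna5*, *Chrna4* and *Chrnb2* changed by 4.19, 3.43, 2.38, 2.31 and 1.93, and for *Chrna3* no GFP-negative sample was above 0.0891 RPKM.

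*Calca*, the gene of calcitonin and the peptide CGRP, was the lower gene, at 0 to 24.7 (median 4.13) RPKM in the GFP-positive and 9.61 to 32.1 (median 18.2) RPKM in the GFP-negative samples (-1.91 ± 0.42, adjusted p = 0.00954, and adjusted p = 0.0557 without the pairing). In pairs 1 to 4 alone it was 0.0662. The 3 members that did not pass were the choline transporter *Slc5a7*, *Chrna7* and *Calcb*.

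Of 24 neuronal cytoskeleton genes, 23 were higher and none lower. Their median change of 3.28 was the highest of the 36 lists read with the offset of 1 RPKM and all pairs. With an offset of 0.1 RPKM it was 3.56, below cholinergic genes (4.21) and postmitotic factors (3.83), and in pairs 1 to 4 alone it was 2.90, below postmitotic factors (2.97). *Nefm* and *Nefl*, the medium and light neurofilament chains, lie on chromosome 14 at 68082590 to 68124846 and 68083863 to 68089095, on opposite strands, so that their annotated spans overlap. *Nefm* stood at 65.7, 293, 235, 337, 309 and 298 RPKM in GFP-positive samples 1 to 6, and 0.477, 0.608, 0.966, 0.897, 0.753 and 0.418 RPKM in the GFP-negative samples. Sample 1 was the lowest of the GFP-positive samples by a wide margin and still lay far above every GFP-negative sample (7.10 ± 0.28, adjusted p = 1.84e-06). *Nefl* ranged over 215 to 585 (median 422) against 0.723 to 3.61 (median 2.01) RPKM (6.98 ± 0.23, adjusted p = 1.26e-06).

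*Gap43*, a growth cone protein, stood at 465, 496, 266, 449, 2139.9 and 1938 RPKM in GFP-positive samples 1 to 6, and 3.62, 5.39, 2.52, 4.87, 13.1 and 5.61 RPKM in the GFP-negative samples. The values of GFP-positive samples 5 and 6 were more than 3 times those of the other 4 (6.82 ± 0.26, adjusted p = 1.65e-06). *Tubb3*, the neuronal beta-tubulin, ranged over 285 to 848 (median 608) against 2.43 to 19.8 (median 5.33) RPKM (6.16 ± 0.27, adjusted p = 3.26e-06).

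The microtubule regulators *Stmn4*, *Stmn3*, *Stmn2* and *Stmn1* changed by 5.13, 4.34, 3.26 and 2.12, and *Dcx*, a microtubule protein of migrating neurons, by 4.34. *Ina* and *Prph*, intermediate filament genes, changed by 4.86 and 2.04, and *Map2* and *Mapt* by 2.53 and 2.33. The heavy chain *Nefh*, which neurons add late, was the only member that did not pass, at 0 to 0.708 (median 0.413) against 0.0519 to 1.81 (median 0.483) RPKM (-0.21 ± 0.20, adjusted p = 0.48). Summed over the 24 genes, the list held 2988 to 7710 RPKM in the GFP-positive and 223 to 594 RPKM in the GFP-negative samples.

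**Figure D2:**
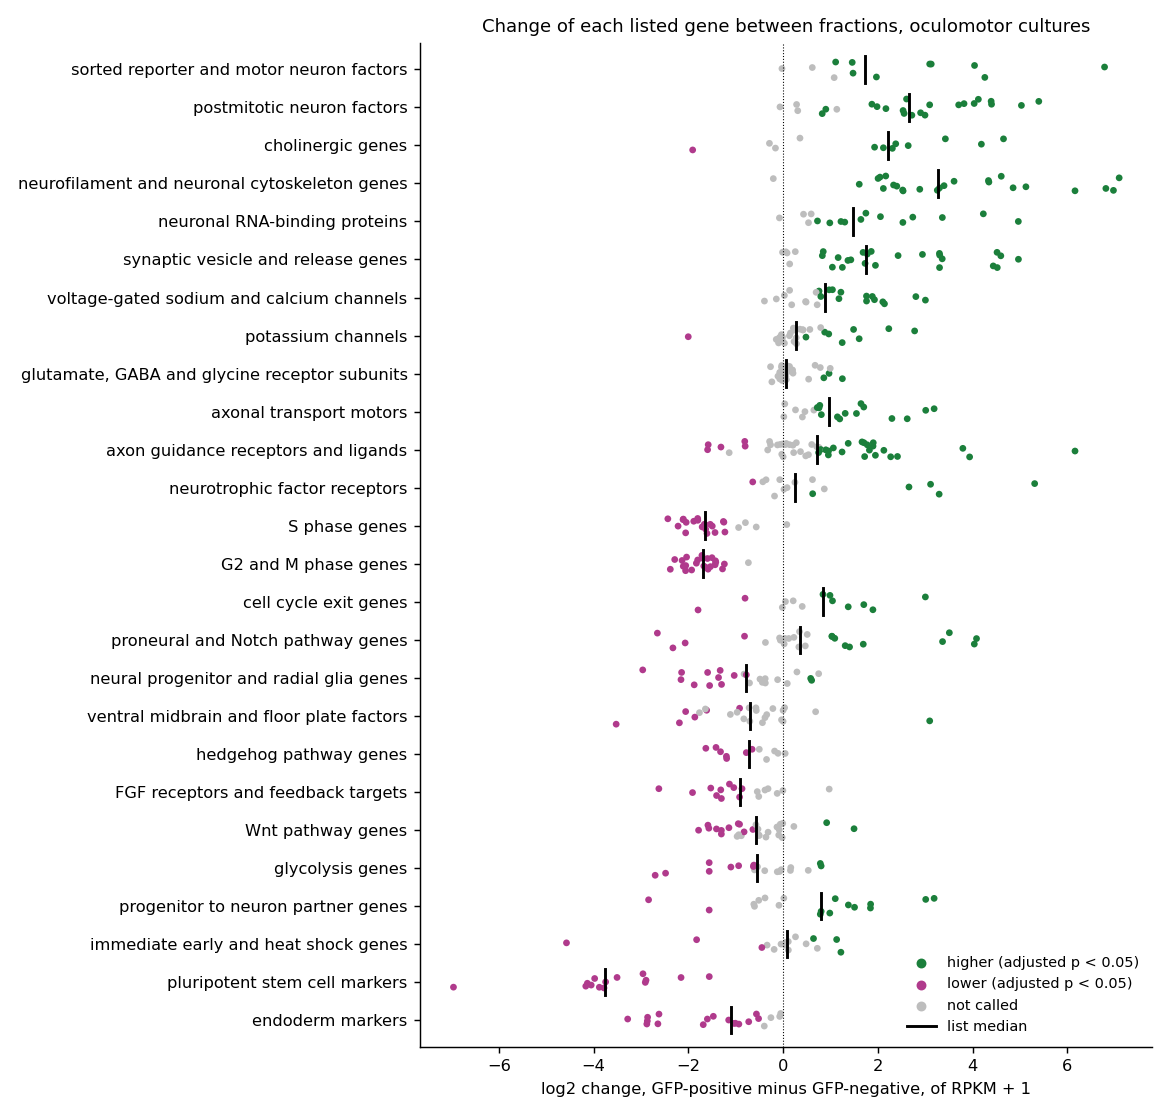
Log2 change between fractions of each tested gene of 24 role lists and of the pluripotent and endoderm marker lists, one point per gene, with called genes colored by direction and a black bar at the list median. At this offset of 1 RPKM cytoskeleton genes have the highest median (3.28, not the highest at an offset of 0.1 RPKM) and pluripotent markers the lowest (-3.77), while S phase and G2 and M phase genes lie together near -1.64 and -1.69.

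Neuronal RNA-binding proteins, which set neuron-type splicing and message stability, were higher for 12 of 16 genes (median 1.47, none lower). *Elavl4* (HuD) ranged over 184 to 272 (median 207) against 4.05 to 9.77 (median 5.42) RPKM (4.97 ± 0.21, adjusted p = 2.50e-06), with no overlap. *Elavl3* (HuC), the splicing regulator *Srrm4* and *Celf3* changed by 4.23, 3.36 and 2.74. The 4 that did not pass were *Rbfox1*, *Nova1*, *Khdrbs2* and *Cpeb3*.

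Of 28 synaptic vesicle and release genes, 23 were higher and none lower (median 1.75). *Chgb*, a granin of dense-core vesicles, ranged over 32.3 to 85.1 (median 42.6) against 0 to 1.06 (median 0.760) RPKM (4.97 ± 0.26, adjusted p = 7.65e-06). *Snap25*, the membrane SNARE of release, ranged over 14 to 62.7 (median 25.1) against 0 to 0.641 (median 0.513) RPKM (4.44 ± 0.28, adjusted p = 2.05e-05). *Syt4*, a vesicle synaptotagmin, was 10.4 to 82.7 (median 24.7) RPKM in GFP-positive samples and at most 0.380 RPKM in GFP-negative ones (4.52 ± 0.42, adjusted p = 1.33e-04).

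The granins *Scg2*, *Scg3* and *Chga* changed by 4.60, 4.52 and 3.31. *Syp*, a major vesicle membrane protein, changed by 3.30. The 5 genes that did not pass were *Syt5*, *Syn2*, *Vamp1*, *Sv2c* and *Rims1*, and the median of each was below 0.5 RPKM in both fractions.

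Neurons fire through voltage-gated channels. Of 24 voltage-gated sodium and calcium channel genes, 15 were higher and none lower (median 0.88). The sodium channel *Scn3a* ranged over 3.60 to 13.6 (median 8.53) against 0.0259 to 0.280 (median 0.101) RPKM (3.00 ± 0.27, adjusted p = 1.14e-04). The calcium channel subunits *Cacna2d1*, *Cacna1e* and *Cacna1b* changed by 2.80, 2.14 and 2.10, and *Scn9a* by 1.88.

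Of 29 potassium channel genes, 8 were higher and 1 lower (median 0.28, against 13.2% higher and 13.0% lower of all genes tested), with 5 higher in pairs 1 to 4 alone. The leak channel *Kcnk10* ranged over 3.55 to 9.0 (median 6.33) against 0 to 0.127 (median 0) RPKM (2.78 ± 0.22, adjusted p = 5.68e-05), and *Kcnc1* changed by 2.23. The leak channel *Kcnk1* went the other way, at 0 to 2.85 (median 0.626) against 2.69 to 13.0 (median 5.20) RPKM (-2.0 ± 0.35, adjusted p = 0.00302).

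Glutamate, GABA and glycine receptor subunits were mostly not called. Of 28 tested, 3 were higher (against 13.2% of all genes) and none lower, with a median of 0.06, and the count higher was 1 in pairs 1 to 4 alone and 6 at an offset of 0.1 RPKM. Among these were the AMPA receptor subunit *Gria2* (0.97 ± 0.18, adjusted p = 0.00423) and the kainate receptor subunit *Grik5*. *Grik5* ranged over 2.09 to 28.3 (median 8.75) against 1.20 to 16.8 (median 1.95) RPKM, with overlapping groups (0.86 ± 0.28, adjusted p = 0.0476), and its call was lost without pair 1, 2, 3, 4, 5 or 6 (adjusted p = 0.0509 to 0.099), and without the pairing (adjusted p = 0.498).

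Axonal transport motors were higher for 14 of 20 genes (median 0.98, none lower). *Kif5a* and *Kif5c*, the neuronal kinesin heavy chains, changed by 3.19 and 3.01. The kinesin light chain *Klc1* ranged over 114 to 294 (median 153) against 20.6 to 46.3 (median 22.8) RPKM (2.62 ± 0.13, adjusted p = 6.56e-06), and the dynactin subunit *Dctn1* changed by 2.30. The ubiquitous heavy chain *Kif5b* was among the 6 that did not pass.

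Of 49 axon guidance genes, 22 were higher and 5 lower (median 0.71), and the list also holds *Tubb3*. Of all genes tested 13.2% were higher and 13.0% lower, so that the count lower was not above the general share. *Sema6d*, a transmembrane semaphorin, ranged over 11 to 30.3 (median 19.2) against 0.157 to 0.562 (median 0.264) RPKM (3.94 ± 0.20, adjusted p = 6.38e-06). The semaphorin receptor *Plxna4* ranged over 7.59 to 31.0 (median 15.9) against 0.0441 to 0.817 (median 0.114) RPKM (3.79 ± 0.28, adjusted p = 4.15e-05). Its co-receptors *Nrp1* and *Nrp2* changed by 1.90 and 2.13, the Slit receptor *Robo2* by 1.71 and the netrin receptor *Unc5c* by 1.95.

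The 5 lower genes were *Unc5b* (-1.60), the chemokine-scavenging receptor *Ackr3* (-1.58), *Sema5b* (-1.31), *Epha7* (-0.81) and *Efnb1* (-0.80). The call of *Efnb1* was lost without pair 1, 3, 4 or 6 (adjusted p = 0.0517 to 0.0893), and without the pairing (adjusted p = 0.381). *Epha7* did not pass in pairs 1 to 4 alone (adjusted p = 0.135), nor *Unc5b* in pairs 5 and 6 alone (adjusted p = 0.158).

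Among 15 neurotrophic factor receptors, 5 were higher and 1 lower (median 0.25), against 13.2% and 13.0% of all genes. *Gfra1* and *Ret*, the 2 chains of the GDNF receptor, ranged over 7.75 to 18.3 (median 10.6) against 0 to 1.11 (median 0.107) RPKM (3.29 ± 0.17, adjusted p = 7.21e-06) and 2.52 to 22.4 (median 11.2) against 0.0613 to 1.5 (median 0.462) RPKM (2.66 ± 0.26, adjusted p = 1.75e-04). *Ngfr*, the shared p75 receptor, changed by 3.11. *Ntrk3* changed by 0.62, a call lost without pair 2, 3, 4 or 6 (adjusted p = 0.055 to 0.0655), and the cytokine co-receptor *Il6st* by -0.64, a call lost without pair 1, 2, 3, 5 or 6 (adjusted p = 0.0524 to 0.102), and without the pairing (adjusted p = 0.118).

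Cell cycle genes fell. Of 24 genes of S phase, 20 were lower and none higher (median -1.64), and of 24 genes of the G2 and M phases, 23 were lower and none higher (median -1.69). *Ccnb2*, a mitotic cyclin, stood at 69.4, 29.4, 2.81, 6.93, 12.9 and 13.2 RPKM in GFP-positive samples 1 to 6, and 129.6, 87.1, 23.3, 47.0, 153 and 124 RPKM in the GFP-negative samples. The GFP-positive sample was lower in every pair, but GFP-positive samples 1 and 2 lay inside the GFP-negative range (-2.38 ± 0.32, adjusted p = 8.56e-04). *Mcm3*, a subunit of the replicative helicase, ranged over 1.47 to 20.6 (median 8.71) RPKM in the GFP-positive and 29.2 to 69.3 (median 39.4) RPKM in the GFP-negative samples (-2.44 ± 0.31, adjusted p = 6.71e-04), without overlap.

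The spindle checkpoint kinase *Bub1b* ranged over 0.610 to 8.52 (median 2.56) against 12.6 to 28.5 (median 15.5) RPKM (-2.29 ± 0.25, adjusted p = 2.87e-04), with no overlap. *Cdc20*, the activator of the anaphase-promoting complex, *Ccnb1*, *Top2a*, which untangles DNA, and the proliferation marker *Mki67* changed by -2.13, -2.11, -1.83 and -1.70. The call of *Mki67* was lost without the pairing (adjusted p = 0.0522). *Mcm4* and the sliding clamp *Pcna* changed by -2.22 and -1.65.

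Summed over the G2 and M phase list, the GFP-positive samples 1 to 6 held 724, 417, 259, 156, 97.1 and 88.5 RPKM, and the GFP-negative samples held 1140.1, 1002, 625, 786, 904 and 806 RPKM. The GFP-positive cells of pairs 1 to 4 thus kept more cell cycle RNA than those of pairs 5 and 6, and in pairs 1 to 4 alone 16 of the 24 genes passed. Without the pairing 12 of 24 S phase genes passed. GFP-positive sample 1, with the most cell cycle RNA, also held the most pluripotency RNA of its fraction, and without pair 1 the medians of the S phase and G2 and M phase lists were -1.81 and -1.94.

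Of 13 genes of cell cycle exit, 7 were higher and 2 lower (median 0.84), against 13.2% and 13.0% of all genes. The count lower was thus near the general share. *Gadd45g*, a growth arrest gene of newborn neurons, ranged over 80.0 to 383 (median 188) against 8.19 to 82.1 (median 17.4) RPKM (3.00 ± 0.31, adjusted p = 2.33e-04). The cyclin-dependent kinase inhibitors *Cdkn2d*, *Cdkn1a* and *Cdkn1c* changed by 1.90, 1.70 and 1.37. The cyclins *Ccnd2* (-1.80) and *Ccnd3* (-0.80) were lower, and the call of *Ccnd2* was lost without pair 3, 4, 5 or 6 (adjusted p = 0.0515 to 0.0605) and that of *Ccnd3* without the pairing (adjusted p = 0.24).

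Genes of the G2 and M phases share promoter elements, and the sequences of 4 of them are given because the group moved together. Promoters of mitotic genes are known to carry CCAAT boxes, bound by the factor NF-Y, and often the cell cycle homology region TTTGAA, through which the DREAM complex acts in resting cells. The 4 genes with the largest fall among those in the RefSeq promoter table (GRCm38.p6) are shown as the 250 bases before the annotated start, 5′ to 3′ on the gene's strand, with each CCAAT and each TTTGAA, on either strand, in capitals. The 2 elements did not overlap in these windows.
Ccnb2 (chr9:70421555-70421804, minus strand): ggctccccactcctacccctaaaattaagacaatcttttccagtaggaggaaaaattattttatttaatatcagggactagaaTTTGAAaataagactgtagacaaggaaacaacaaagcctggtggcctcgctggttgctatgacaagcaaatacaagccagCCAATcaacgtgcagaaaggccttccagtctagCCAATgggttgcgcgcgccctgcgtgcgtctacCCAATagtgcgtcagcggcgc
Bub1b (chr2:118597961-118598210, plus strand): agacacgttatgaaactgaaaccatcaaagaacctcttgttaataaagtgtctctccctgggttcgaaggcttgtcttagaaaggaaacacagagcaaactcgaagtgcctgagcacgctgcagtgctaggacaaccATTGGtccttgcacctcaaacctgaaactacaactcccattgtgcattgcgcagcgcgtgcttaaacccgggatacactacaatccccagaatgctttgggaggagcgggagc
Cdc20 (chr4:118437344-118437593, minus strand): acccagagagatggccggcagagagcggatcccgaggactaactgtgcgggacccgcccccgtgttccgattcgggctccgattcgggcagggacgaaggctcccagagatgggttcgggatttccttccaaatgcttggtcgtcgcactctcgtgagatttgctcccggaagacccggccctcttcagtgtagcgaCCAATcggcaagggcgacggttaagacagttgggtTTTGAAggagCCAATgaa
Ccnb1 (chr13:100786487-100786736, minus strand): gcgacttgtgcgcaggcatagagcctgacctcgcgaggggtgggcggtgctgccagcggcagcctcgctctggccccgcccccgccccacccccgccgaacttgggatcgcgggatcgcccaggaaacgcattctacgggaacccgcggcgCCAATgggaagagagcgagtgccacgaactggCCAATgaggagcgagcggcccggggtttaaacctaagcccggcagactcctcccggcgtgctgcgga
CCAAT occurred 3 times before *Ccnb2*, 2 times before *Cdc20* and *Ccnb1* and 1 time before *Bub1b*. Over the list, 17 of the 19 genes with a promoter in the table (89.5%) held CCAAT in this window, against 37.5% of all 27025 genes of the table. For S phase genes it was 13 of 20 (65.0%), and for neuronal cytoskeleton genes 3 of 12. TTTGAA was found for 7 of the 19 G2 and M phase genes (36.8%), 3 of 20 S phase genes and none of 12 cytoskeleton genes, against 18.3% of all. *Bub1b* and *Ccnb1* hold no TTTGAA in the windows shown. Over all genes called and found in the table, TTTGAA was held by 14.6% of those lower and 11.1% of those higher in GFP-positive cells, and CCAAT by 43.4% and 40.6%. A match of letters is a description and shows no binding.

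Of 25 proneural and Notch pathway genes tested, 10 were higher and 4 lower (median 0.35), against 13.2% and 13.0% of all genes. The count lower was thus near the general share. *Neurod4* and *Neurod1*, basic helix-loop-helix factors of committed neurons, ranged over 14 to 165 (median 67.7) against 0.744 to 5.32 (median 2.86) RPKM (4.08 ± 0.32, adjusted p = 5.30e-05) and 9.75 to 53.1 (median 33.9) against 0.456 to 1.39 (median 0.803) RPKM (4.04 ± 0.30, adjusted p = 3.71e-05). The Notch ligand *Dll3* and the zinc finger factor *Insm1*, both of newborn neurons, changed by 3.51 and 3.37.

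*Hes1*, the repressor that Notch signaling switches on, ranged over 5.40 to 33.5 (median 13.9) RPKM in the GFP-positive and 41.1 to 182 (median 102) RPKM in the GFP-negative samples (-2.66 ± 0.44, adjusted p = 0.00251), with no overlap. The other lower genes were *Notch2* (-2.07), *Notch3* (-0.82) and the inhibitor of differentiation *Id3* (-2.33). The calls of *Notch2* and *Notch3* were lost without the pairing (adjusted p = 0.0941 and 0.217).

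Of 23 genes of neural progenitors and radial glia, 11 were lower and 2 higher (median -0.78), with 7 lower without pair 6 and 6 without the pairing. Of all genes 13.2% were higher and 13.0% lower, so that the count higher was not above the general share. The 2 higher were not called without pair 2, 3 or 6. *Sox2*, the factor that keeps neural progenitors and pluripotent cells undifferentiated, stood at 11.6, 39.2, 10.3, 10.3, 1.14 and 4.57 RPKM in GFP-positive samples 1 to 6, and 92.9, 118, 60.4, 103, 36.6 and 64.4 RPKM in the GFP-negative samples. Only GFP-positive sample 2 reached into the GFP-negative range (-2.97 ± 0.30, adjusted p = 1.93e-04). *Sox21* and the glial glutamate transporter *Slc1a3* changed by -2.16 and -1.88, and *Pax6* by -1.03.

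*Nes*, whose enhancer drives the transgene, ranged over 2.35 to 12.3 (median 4.47) against 3.23 to 30.5 (median 5.70) RPKM (-0.44 ± 0.28, adjusted p = 0.285), and its groups overlapped. The 2 higher genes were the RNA-binding proteins *Msi1* (0.60) and *Lin28b* (0.58). The call of *Msi1* was lost without pair 2, 3, 4 or 6 (adjusted p = 0.0531 to 0.0874), and without the pairing (adjusted p = 0.58). That of *Lin28b* was lost without pair 1, 2, 3, 5 or 6 (adjusted p = 0.0901 to 0.118), and without the pairing (adjusted p = 0.118).

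Ventral midbrain and floor plate factors were lower for 6 of 25 genes and higher for 1, *Nkx6-1* (median -0.70, against 13.0% lower of all genes). The count depended on the pairs, with 4 lower in pairs 1 to 4 alone (median -0.15) and 18 of 21 in pairs 5 and 6 alone (median -1.73). It was 3 without the pairing, 10 at an offset of 0.1 RPKM and 11 with sample weights. *Otx2*, the homeodomain factor of forebrain and midbrain, ranged over 0.208 to 1.62 (median 0.752) RPKM in the GFP-positive and 8.84 to 32.2 (median 21.4) RPKM in the GFP-negative samples (-3.53 ± 0.24, adjusted p = 2.95e-05). It was the member whose groups were separated in all samples. *Foxa2*, a forkhead factor of floor plate and endoderm, ranged over 1.25 to 14 (median 4.96) against 8.29 to 41.6 (median 29.5) RPKM (-2.06 ± 0.34, adjusted p = 0.00227).

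*Nkx2-9*, *Olig1* and *Fgf8* changed by -2.19, -1.87 and -0.92, and *Foxa1* by -1.62. The call of *Foxa1* was lost without pair 3, 4, 5 or 6 (adjusted p = 0.0671 to 0.113), and without the pairing (adjusted p = 0.135). That of *Fgf8* was lost without pair 2, 3, 5 or 6 (adjusted p = 0.0519 to 0.058), and without the pairing (adjusted p = 0.217). *Nkx2-9* did not pass without the pairing (adjusted p = 0.201). *Shh*, the floor plate signal, did not pass, at 1.06 to 10.2 (median 3.92) against 2.42 to 58.9 (median 10.5) RPKM (-1.77 ± 0.62, adjusted p = 0.0634).

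Both patterning agents feed pathways with known receptors and feedback targets. Of 12 hedgehog pathway genes 7 were lower and none higher (median -0.72, with 4 lower in pairs 1 to 4 alone and 3 without the pairing), and of 17 genes of FGF receptors and feedback targets 10 were lower and none higher (median -0.92, with 6 lower without pair 6 or in pairs 1 to 4 alone and 5 without the pairing). *Ptch1*, receptor and target of hedgehog, ranged over 5.89 to 40.0 (median 23.1) against 19.6 to 111 (median 69.8) RPKM (-1.63 ± 0.22, adjusted p = 9.48e-04, and 0.0698 without the pairing). *Gli1*, the most direct hedgehog target, ranged over 0 to 0.861 (median 0.129) against 0.291 to 4.60 (median 3.51) RPKM (-1.42 ± 0.28, adjusted p = 0.0058). Both sets of groups overlapped.

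*Etv5* and *Dusp6*, targets of FGF signaling through the MAP kinase pathway, ranged over 0.529 to 6.10 (median 2.77) against 6.68 to 47.5 (median 23.5) RPKM (-2.63 ± 0.23, adjusted p = 1.01e-04) and 3.39 to 20.6 (median 12.3) against 14.9 to 78.7 (median 46.5) RPKM (-1.91 ± 0.23, adjusted p = 4.40e-04). Of 29 Wnt pathway genes 11 were lower and 2 higher (median -0.58, with 7 lower without pair 6 and 5 in pairs 1 to 4 alone or without the pairing). The count higher was not above the 13.2% of all genes, and 13.0% of all genes were lower. The Wnt transcription factor *Tcf7* changed by -1.79. The 2 higher genes were the receptors *Fzd1* (1.5) and *Fzd3* (0.92), and the call of *Fzd3* was lost without pair 1, 2, 3 or 4 (adjusted p = 0.0735 to 0.0919), and without the pairing (adjusted p = 0.0629).

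Glycolysis genes were lower for 8 of 19 and higher for 2 (median -0.54), but without the pairing only 2 were lower. Of all genes 13.2% were higher and 13.0% lower, so that the count higher was not above the general share. The glucose transporters *Slc2a3* and *Slc2a1* ranged over 1.73 to 15.2 (median 7.75) against 15.7 to 145 (median 51.4) RPKM (-2.70 ± 0.33, adjusted p = 4.91e-04) and 1.49 to 48.4 (median 10.9) against 14.5 to 299 (median 82.7) RPKM (-2.48 ± 0.33, adjusted p = 8.60e-04, and 0.067 without the pairing). *Slc2a3* was the member whose groups did not overlap. *Hk2*, the hexokinase of growing cells, and *Ldhb* changed by -1.56 and -1.56, and *Ldhb* did not pass without the pairing (adjusted p = 0.075).

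The 2 higher genes were the hexokinase *Hk1* (0.78) and the neuronal enolase *Eno2* (0.80). The call of *Hk1* was lost without pair 2 or 5 (adjusted p = 0.0533 to 0.0566), and without the pairing (adjusted p = 0.345). That of *Eno2* was lost without pair 2, 3, 5 or 6 (adjusted p = 0.0816 to 0.124), and without the pairing (adjusted p = 0.206).

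A list of 18 genes held pairs of which one is known to replace the other as a progenitor becomes a neuron. In it 10 were higher and 2 lower (median 0.79), against 13.2% and 13.0% of all genes, so that the count lower was near the general share. *Rest*, the repressor of neuronal genes outside neurons, ranged over 0.421 to 4.60 (median 1.82) RPKM in the GFP-positive and 9.54 to 28.8 (median 20.8) RPKM in the GFP-negative samples (-2.84 ± 0.35, adjusted p = 5.77e-04), with no overlap. The neuron-type subunits of the BAF chromatin remodeling complex, *Actl6b*, *Dpf1*, *Dpf3* and *Ss18l1*, changed by 1.85, 1.84, 1.38 and 1.51, while their progenitor partners *Actl6a*, *Phf10* and *Ss18* did not pass the test. *Ptbp1*, the splicing repressor of progenitors, did not pass either.

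Of 16 immediate early and heat shock genes, 3 were higher (*Jun*, *Dusp1* and *Ddit3*) and 3 lower (*Hspb1*, *Hspa8* and *Gadd45b*), against 13.2% and 13.0% of all genes. The median change of this list was 0.08. The 3 higher fell to 1 in pairs 1 to 4 alone and when pair 2, 3, 5 or 6 was left out, and 1 gene was higher and 1 lower without the pairing.

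Markers of pluripotent stem cells were lower in GFP-positive cells for all 14 genes tested (against 13.0% of all genes), with a median of -3.77. For 11 of these markers no sample of one fraction reached the other (2.9% of all genes lay fully below). Summed, they stood at 269, 92.0, 72.7, 1.01, 25.9 and 57.7 RPKM in GFP-positive samples 1 to 6 and at 7604, 3314, 6837, 778, 10006 and 6393 RPKM in the GFP-negative samples. *Dppa5a* made up most of these sums. GFP-negative sample 4 held the least.

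*Nanog*, a core pluripotency factor, ranged over 0.315 to 3.17 (median 1.34) RPKM in the GFP-positive and 16.5 to 85.4 (median 36.0) RPKM in the GFP-negative samples (-4.05 ± 0.16, adjusted p = 1.65e-06). *Pou5f1* (Oct4), the other core factor, stood at 0.767, 1.09, 1.39, 0, 0 and 0 RPKM in GFP-positive samples 1 to 6, and 43.7, 13.5, 5.90, 49.1, 1.94 and 1.29 RPKM in the GFP-negative samples. It was lower in the GFP-positive sample of every pair, but GFP-negative samples 5 and 6 were low as well, although their *Dppa5a* was high, and the groups overlapped (-2.90 ± 0.58, adjusted p = 0.00655).

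*Tdgf1*, a Nodal co-receptor, *Zfp42* (Rex1) and *Utf1* changed by -4.13, -3.98 and -3.75. *Esrrb*, *Klf2*, *Klf4* and *Tfcp2l1*, factors of the naive state, changed by -2.91, -2.96, -2.16 and -1.56. *Dppa3*, *Dppa4*, *Tdh* and *Fgf4* changed by -4.17, -3.78, -3.88 and -3.51. All 14 were lower in every alternative fit that was run.

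**Figure D3:**
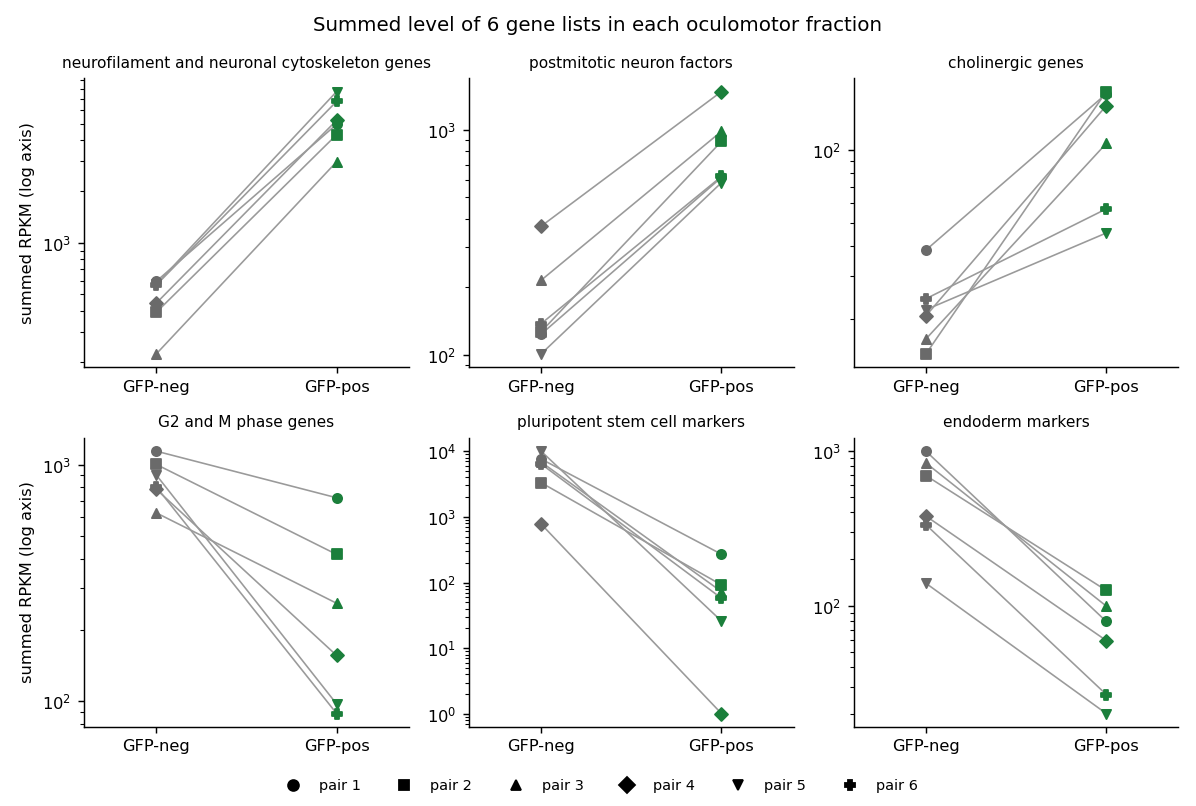
Summed RPKM of 6 gene lists on log axes, GFP-negative samples in grey and GFP-positive in green, one marker shape per pair and a line joining each pair. All pairs rise for cytoskeleton, postmitotic and cholinergic genes and fall for G2 and M phase, pluripotent and endoderm genes, and GFP-positive samples 5 and 6 have the lowest G2 and M phase sums (97.1 and 88.5).

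Endoderm markers were also lower, for 16 of 20 genes with none higher (median -1.09). In pairs 5 and 6 alone 10 were lower (median -0.67), and in the fit of all 24 samples 8. Their sums were 20.2 to 125 RPKM in the GFP-positive and 140 to 991 RPKM in the GFP-negative samples. *Apoe*, a lipid carrier of yolk sac and many other cells, ranged over 9.88 to 59.9 (median 45.5) against 69.3 to 809 (median 267) RPKM (-2.87 ± 0.20, adjusted p = 3.24e-05). *Sparc* and *Lamb1*, matrix genes of parietal endoderm, changed by -3.28 and -2.86. Of the more specific genes, *Ttr* changed by -2.65 and the endoderm factor *Gata4* by -1.01 (adjusted p = 0.0524 in pairs 5 and 6 alone), and *Hnf4a* and *Afp* had medians of 0 in the GFP-positive samples.

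Other cell type marker lists were read for both fractions, against 13.2% higher and 13.0% lower of all genes. Mesenchyme markers were lower for 3 of 16 genes (sums of 9.30 to 39.2 against 30.2 to 100.0 RPKM), led by *Fn1* (-1.94). This was 1 gene in pairs 1 to 4 alone and in the fit of all 24 samples, 9 in pairs 5 and 6 alone and 5 without pair 1 or with sample weights. Heart muscle markers were lower for 3 of 10 (0.298 to 4.73 against 3.39 to 19.8 RPKM), neural crest markers for 3 of 10 (1.07 to 3.34 against 3.35 to 9.97 RPKM, *Sox10* listed at 0 in all 12 samples) and endothelial and blood markers for 2 of 5 (0.0481 to 7.26 against 0.448 to 3.67 RPKM, *Cdh5*, *Hba-a1* and *Ptprc* listed at 0). These counts moved with the pairs and settings. Heart muscle markers fell to 1 without pair 3, in pairs 1 to 4 alone or without the pairing, and were 5 at an offset of 0.1 RPKM or with median ratio scaling. Neural crest markers fell to 0 without pair 1 and to 1 without pair 2, 3 or 6, in pairs 1 to 4 alone or without the pairing, and endothelial and blood markers to 0 without pair 1 and to 1 without any other pair. Astrocyte and oligodendrocyte markers were higher for 2 (*Slc1a2* and *Mbp*) and lower for 2 of 11 (4.83 to 12.8 against 13.7 to 46.9 RPKM), with the gap junction gene *Gja1* changing by -3.04 and *Opalin* listed at 0.

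Markers of other neurons were read in the same way, since *Islet1* marks more than motor neurons. The sensory neuron list summed to 272 to 406 RPKM in the GFP-positive and 3.13 to 7.73 RPKM in the GFP-negative samples. Most of this was *Isl1* itself, and 5 of 14 genes were higher, among them *Isl1*, *Pou4f1*, *P2rx3* and *Pou4f2*, with 1 lower, *Six4*. The call of *Six4* was lost without pair 1, 2 or 6 (adjusted p = 0.0578 to 0.0626), and without the pairing (adjusted p = 0.141). *Pou4f1* (Brn3a), which marks sensory neurons and also neurons of the red nucleus and habenula, stood at 23.7, 16.4, 4.94, 7.42, 6.77 and 6.51 RPKM in GFP-positive samples 1 to 6, and 1.47, 0.401, 0.374, 0.159, 0.621 and 0.724 RPKM in the GFP-negative samples. Its groups did not overlap (2.72 ± 0.25, adjusted p = 1.24e-04). The ATP-gated channel *P2rx3* ranged over 2.47 to 14.2 (median 3.28) against 0.0578 to 0.797 (median 0.104) RPKM (2.26 ± 0.25, adjusted p = 3.08e-04), and *Pou4f2* changed by 1.63 (in pairs 1 to 4 alone its adjusted p was 0.0954).

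Among 9 dopaminergic and noradrenergic markers, 3 were higher, the vesicular monoamine transporter *Slc18a2* (7.62 to 43.4 (median 18.8) against 0.551 to 2.46 (median 1.89) RPKM, 2.90 ± 0.36, adjusted p = 5.77e-04), *Gch1* (1.66, with an adjusted p of 0.0791 in pairs 1 to 4 alone) and the noradrenaline-making enzyme *Dbh* (0.101 to 2.90 (median 1.93) against 0 to 0.0770 (median 0) RPKM, 1.32 ± 0.25, adjusted p = 0.00458). *Th*, which catalyses the first step of the pathway, did not pass, at a median of 2.12 against 0.314 RPKM. The list summed to 15.8 to 62.6 against 7.91 to 14.1 RPKM. Serotonergic markers were higher for 2 of 8, *Gata2* and *Tph1* (2.54 to 4.82 against 1.82 to 4.36 RPKM, *Fev* listed at 0), a count that was 0 without pair 1 and 1 without pair 2, 3, 5 or 6 or without the pairing. Of glutamatergic markers 1 of 9 was higher, *Pou4f1* (6.58 to 25.0 against 0.961 to 5.03 RPKM), and of GABAergic and glycinergic markers 1 of 15 (*Gata2*, and none without pair 1, 2, 3 or 4 or without the pairing), with *Tal2* lower (1.59 to 5.37 against 2.23 to 33.1 RPKM). What part these cell types have in the values above was not tested.

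The last comparison asked whether the difference between sorted fractions was of another size in oculomotor than in spinal cultures, by an interaction term in a fit of all 24 samples. Line, reporter and morphogens differ together between the cultures and cannot be told apart. The interaction passed for 486 of 22179 genes (2.19%), 212 with the higher log2 change in oculomotor cultures (0.956%) and 274 with the higher in spinal cultures (1.24%). In the spinal cultures alone 673 genes (3.03%) differed between the fractions. The interaction passed for 72 genes without the pairing and for 613 without spinal pairs 2 and 4. It passed for 262, 317, 323 and 295 genes without oculomotor pair 2, 3, 4 or 6, and for 292 without spinal pair 5. In spinal GFP-negative sample 2 the 10 highest genes took 76.3% of summed RPKM, and both fractions of spinal pair 4 held much pluripotency RNA (5659 RPKM in GFP-positive and 6345 RPKM in GFP-negative cells). The sort gene of the spinal line, *Mnx1*, did not separate pair 4, at 43.1 RPKM in GFP-positive and 69.4 RPKM in GFP-negative cells. *Isl1* stood there at 7.63 and 8.56 RPKM. In every other spinal pair *Mnx1* was higher in the GFP-positive sample. The counts from all samples include this pair.

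The lists read here were chosen with earlier results of these data known. The interaction passed for 7 of 24 cytoskeleton and 8 of 24 postmitotic factor genes, each with the higher log2 change in oculomotor cultures (0.956% of all genes). Without spinal pairs 2 and 4 it was 6 with the higher change in oculomotor and 1 in spinal cultures for the cytoskeleton, and 9 and none for the postmitotic factors. *Ppp1r17*, *Rgs4*, *Gap43*, *Ebf1* and *Sst* were named for large changes in these same samples, so that their interactions are no independent support. *Ppp1r17* was 0.945 to 12.0 RPKM in spinal GFP-positive and 0 to 12.6 RPKM in spinal GFP-negative samples, a spinal change of 0.26, and its interaction was 6.81, adjusted p = 3.48e-04 (6.90, adjusted p = 0.00212 without spinal pairs 2 and 4). *Rgs4*, *Gap43* and *Ebf1* had interactions of 5.23, adjusted p = 2.19e-04, 4.92, adjusted p = 6.63e-04 and 4.24, adjusted p = 6.63e-04, and that of *Gap43* was lost without the pairing (adjusted p = 0.131). *Sst* had one of 4.46, adjusted p = 0.0477, which was called in 2 of the 17 alternatives run (adjusted p = 0.00965 to 0.109 over all). *Isl1*, the sort gene of the oculomotor line, had an interaction of 3.47, adjusted p = 0.0131. The spinal line was sorted on *Mnx1*, so that this value of *Isl1* is a check of the sort and not a result. *Lhx3*, whose spinal change was 2.96, had an interaction of -2.98, adjusted p = 0.0321. That of *Lhx3* was called in 6 of the 17 alternatives, with an adjusted p of 0.0536 without spinal pair 5 and 0.201 without the pairing.

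The pluripotency genes differed between the cultures. The interaction passed for 12 of the 14 markers, each with the lower step on the oculomotor side (against 1.24% of all genes). Without spinal pairs 2 and 4 it also passed for 12, but not the same set, since that of *Utf1* was lost (adjusted p = 0.1). Without spinal pair 5, whose GFP-positive sample had the highest sum, those of *Pou5f1* and *Utf1* were lost (adjusted p = 0.0756 and 0.0942). Without the pairing, 1 of the 12 that passed with all samples still did, *Tdh*. The median step of the 14 markers was -3.77 in oculomotor and 0.60 in spinal cultures. The spinal sums were scattered, at 18.4 to 12815 RPKM in GFP-positive and 116 to 6345 RPKM in GFP-negative samples, and the groups overlapped. The interaction of *Nanog* was -5.72, adjusted p = 2.84e-04, that of *Dppa5a* -8.49, adjusted p = 8.14e-04, that of *Spp1* -5.88, adjusted p = 0.00166, that of *Ifitm1* -5.67, adjusted p = 3.54e-04 and that of *Lefty1*, a Nodal inhibitor, -5.45, adjusted p = 3.54e-04. These 5 were the largest interactions of this direction under the naming rule, so that their size is no independent support. Without the pairing these 5 had an adjusted p of 0.05 to 0.211.

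Endoderm markers fell in both cultures, by a median of -1.09 in the oculomotor and -1.88 in the spinal sort. Their interaction passed for 2 of 20 (against 2.19% of all genes), 1 in each direction. Without spinal pairs 2 and 4 it passed for 8 of 20, all with the higher log2 change in oculomotor cultures, and the spinal median was -2.27. For G2 and M phase genes the medians were -1.69 and -0.69, and the interaction passed for 1 of 24, *Bub1b* (-1.95, adjusted p = 0.0404), and for none without spinal pairs 2 and 4 (-1.70, adjusted p = 0.112 for *Bub1b*).

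**Figure D4:**
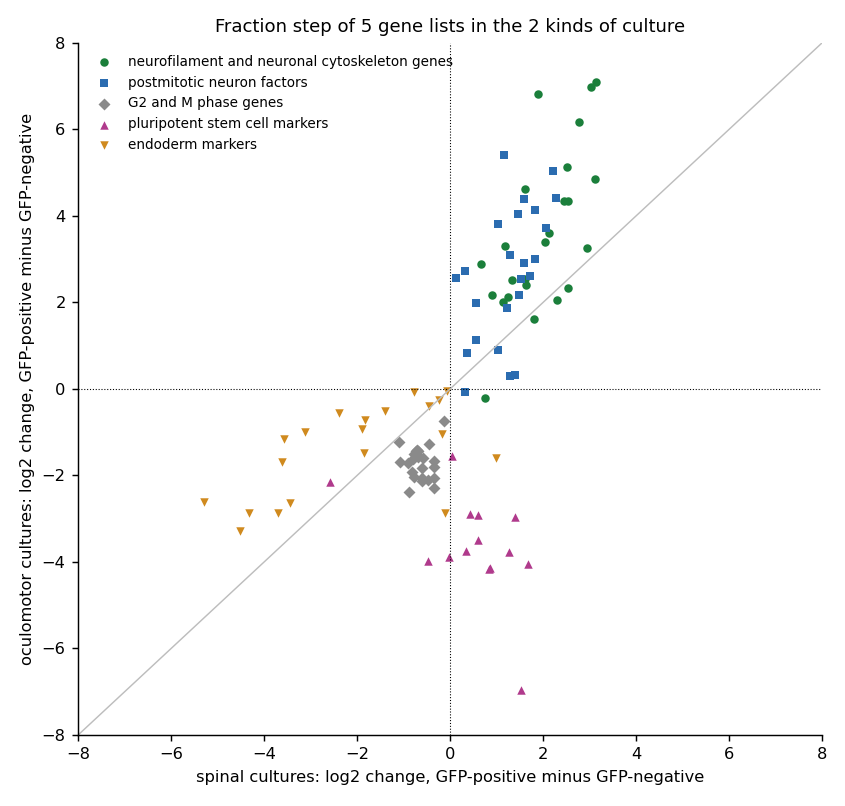
Log2 change between fractions in oculomotor cultures against that in spinal cultures for the genes of 5 lists, one point per gene, with the grey line marking equal steps. Cytoskeleton and postmitotic genes lie mostly above the line, endoderm genes mostly below 0 in both cultures, and pluripotent markers below 0 in oculomotor cultures and on both sides of 0 in spinal cultures, with a median of -3.77 against 0.60.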

How the data were processed

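RPKM values were deposited by the authors, who sorted cells by GFP, made SMART-seq2 libraries and computed RPKM with rpkmforgenes. Per the submitters' processing notes, HISAT2 2.0.3, DESeq2 1.12.4 and the build mm10 (GRCm38) were used, and the gene annotation behind the RPKM values is not given in the sources used here. The table holds no counts, and depth was estimated from the spacing of low values, of which 96.2% to 97.9% per sample fell within 2% of a whole number of reads. Reads in overlapping genes on opposite strands, such as *Nefl* and *Nefm*, cannot be told apart, since the library does not keep strand.

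The 12 oculomotor samples were fitted with limma 3.58.1 in R 4.3.3 (trend and robust) on log2(RPKM + 1) with the pair as a block, for genes above 0 RPKM in at least 2 samples. P-values were adjusted after Benjamini and Hochberg over all genes tested, and 0.05 was the threshold. Same-numbered samples deviated together in all 6 pairs (correlations of 0.383 to 0.731 over 11487 genes, each highest with its own number), and the pairing comes from the labels' numbers together with this check. Single values were compared by an exact two-sided sign-flip test over 64 assignments. The interaction was fitted on all 24 samples. Genes were named by these rules: the 12 largest changes in each direction among separated genes with a mean of at least 5 RPKM in the higher fraction, members of 36 role and marker lists, the 5 largest interactions in each direction, and *Isl1* and *Phox2a*. Unnamed loci and duplicated or date-like names were left out. Some members of the lists are counted but not reported by name here. The members and lists were chosen with earlier results of these data known. The scripts were tested on simulated data. Gene positions were matched by symbol to the GENCODE annotation of GRCm38, and promoters came from RefSeq (GRCm38.p6). Alternatives without spinal pairs 2 and 4 were chosen after seeing the data. Other choices tried were no pairing, an offset of 0.1 RPKM, other filters and scalings, sample weights, subsets of pairs and leaving out each pair.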

Additional observations from a re-analysis of the deposited data

Results flagged for a closer look

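Of 446 groups of 6 samples examined (each described gene or list sum in each fraction), 20 held a sample that stood far from the other 5 by Dixon's test, where chance alone gives about 1 in 20. The 20 flagged are thus no more than that rate gives, and they are listed as description only. GFP-negative sample 4 accounted for 7 of the 20, being the highest of its fraction for *Onecut2* (2.71 RPKM), *Myt1* (1.18 RPKM), *Nhlh1* (2.11 RPKM), *Stmn4* (1.16 RPKM), *Klc1* (46.3 RPKM) and *Dll3* (6.76 RPKM) and the lowest for *Fn1* (8.37 RPKM). It was also the least deeply sequenced sample, and the part of either in these values was not tested. GFP-positive sample 1 was the lowest of its fraction for *Nefm* (65.7 RPKM), *Kif5c* (26.5 RPKM) and the summed synaptic list (308 RPKM), and the highest for *Fbxo15* (1.20 RPKM). GFP-positive sample 2 stood apart for *Unc5b* (1.74 RPKM), *Esrrb* (3.59 RPKM) and the summed endothelial and blood markers (7.26 RPKM). GFP-positive sample 4 stood apart for *Ache* (11.3 RPKM), *Gch1* (1.53 RPKM) and *Fgf8* (5.24 RPKM). The others were *Scn9a* in GFP-positive sample 3 (6.77 RPKM), *Dppa3* in GFP-positive sample 5 (1.05 RPKM, the other 5 being listed at 0) and *Slc18a3* in GFP-negative sample 1 (1.43 RPKM).

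For 71 of the genes named, the difference between fractions was of another size in oculomotor than in spinal cultures by the interaction test at an adjusted p below 0.05 (limma, all 24 samples). Over all genes tested, the interaction passed for 2.19%. Genes were named for large changes or interactions in these same samples, or from lists chosen with earlier results known. The count of 71 is thus no independent support. It includes *Isl1*, the gene of the oculomotor sort, whose interaction is a check of the sort and not a result. Among factors of motor neurons and of postmitotic neurons, the interactions (log2 change in oculomotor minus that in spinal cultures) were *Ebf1* 4.24, *Isl1* 3.47, *Neurod4* 3.13, *Tbx20* 3.09, *Nkx6-1* 3.07, *Lhx3* -2.98, *Insm1* 2.94, *St18* 2.83, *Onecut2* 2.81, *Eya2* 2.79, *Ebf3* 2.58, *Eya1* 2.44, *Pou4f1* 2.40 and *Klf7* 1.82. For cytoskeleton, RNA-binding and vesicle genes they were *Gap43* 4.92, *Chgb* 4.02, *Nefm* 3.95, *Nefl* 3.94, *Tubb3* 3.39, *Mllt11* 2.99, *Scg3* 2.85, *Snap25* 2.84, *Elavl4* 2.83, *Elavl3* 2.80, *Syp* 2.15 and *Srrm4* 1.99. For receptors, channels, guidance and transmitter genes they were *Sema6d* 3.99, *Chrna3* 3.56, *Chrnb4* 3.00, *Plxna4* 2.71, *Gfra1* 2.19, *P2rx3* 2.09, *Fzd1* 2.05, *Kcnk10* 1.96, *Kcnc1* 1.78, *Cacna1e* 1.70, *Robo2* 1.53, *Unc5c* 1.53 and *Dbh* 1.45. For the peptide and signaling genes of the largest rises they were *Ppp1r17* 6.81, *Rgs4* 5.23 and *Sst* 4.46. For pluripotency genes they were *Dppa5a* -8.49, *Nanog* -5.72, *Dppa4* -5.06, *Dppa3* -5.01, *Tdgf1* -4.99, *Klf2* -4.35, *Fgf4* -4.11, *Utf1* -4.09, *Tdh* -3.86, *Zfp42* -3.50, *Esrrb* -3.50 and *Pou5f1* -3.32. For other genes of the largest falls or interactions they were *Spp1* -5.88, *Ifitm1* -5.67, *Lefty1* -5.45, *Hspb1* -5.05, *Upp1* -4.94, *Wfdc2* -4.88, *Mt2* -4.14, *Fbxo15* -4.10 and *Epcam* -2.80. For cell cycle, progenitor, signaling, glucose and endoderm genes they were *Otx2* -3.86, *Etv5* -2.84, *Apoe* -2.76, *Ldhb* -2.58, *Slc2a3* -2.47, *Sox2* -1.98, *Bub1b* -1.95 and *Slc2a1* -1.88. Of these 71, 18 passed in all 17 alternatives run, 21 passed without the pairing, 55 passed without spinal pairs 2 and 4 and 50 without spinal pair 5.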

How the results depend on the processing

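The number of genes that differed between fractions kept within 1.5 times of 4975 under the other offset, filters, scalings, sample weights and the fit of all 24 samples, and was 3808 to 4533 without each pair in turn. It moved to 2325 (1213 higher and 1112 lower) without the pairing as a block and to 2798 in pairs 1 to 4 alone. The interaction count moved from 486 to 72 without the pairing, to 840 among genes with a mean of at least 1 RPKM, and to 262 to 656 without each pair in turn. The difference in genes per sample was -41.3 at a limit of 1 RPKM, -956 in pairs 1 to 4 alone (exact p = 0.125, the smallest possible) and -1057 to -723 without each pair, where 5 pairs allow no exact p below 0.0625. Without the pairing its exact permutation p was 0.026, and that of the mitochondrial share was 0.223. The mitochondrial difference was 1.87 to 3.91 percentage points without each pair.

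For the 183 genes named, 1743 of 1824 values under other alternatives and 1040 of 1098 without one pair kept direction and call. The sign of *Lhx3* turned in pairs 5 and 6 alone (0.13), with sample weights (0.027) and without pair 4 (0.032, and -0.072 to 0.032 without each pair in turn), that of *Nefh* (0.22) and that of *Fzd3* (-0.025) in pairs 5 and 6 alone. List medians moved by more than the spread between pairs in 61 of 359 values. The cause of these moves was not tested. For interactions, 279 of 354 values and 682 of 852 values without one pair kept their call. The table gives no read counts, so that precision per gene is known only from the spread between samples. A gene listed at 0 may be present below detection in the samples with the fewest estimated reads (1349152 among oculomotor and 752529 among spinal samples).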
